A study of Mus musculus with 6 samples.

Results

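The genes described here are 35 mouse genes of the peroxisome, measured in full-thickness dorsal skin, 12 that build the organelle (the biogenesis genes), 14 that oxidise lipids in it (the oxidation enzymes) and 9 with neighbouring tasks. They were taken by gene name from the deposited table of read counts, which lists 21959 genes, and all 35 were found and passed the filter on low counts. RNA-seq was performed on the skin of male C57BL/6 mice, 7 weeks of age and shaved in the resting phase of the hair cycle (telogen), after 7 days of daily topical treatment. Of the 6 libraries, 3 came from the vehicle group (30% dipropylene glycol and 70% water) and 3 from the group given 3% rebamipide, a mucosal protective drug. The study used 3 mice per group for these libraries, which are called vehicle 1 to 3 and rebamipide 1 to 3. By the methods of the study each sample was a piece of skin from dermal fat to epidermis, a mixture of many cell types, though defining epidermal markers were at 0 in rebamipide 3. In such bulk samples, fewer cells of a type and less RNA per cell cannot be told apart.

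Peroxisomes are organelles bounded by a single membrane that import their folded enzymes from the cytosol with the help of proteins called peroxins, encoded by the Pex genes. They shorten fatty acids that mitochondria handle poorly, such as very long chain and branched chain fatty acids, and they start the synthesis of ether lipids. The first step of their beta-oxidation passes electrons straight to oxygen and makes hydrogen peroxide, which catalase breaks down. Shortened chains are passed on to mitochondria. Peroxisomes are abundant in liver and brown fat, and in skin the lipid-making cells of the sebaceous gland also depend on them.

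Vehicle libraries held 38676018 to 39915276 counts in total and rebamipide libraries 32709801 to 34706852. Rebamipide 3 stood apart, since the basal keratinocyte gene Krt14 had 0 counts in it and Krt5 had 4, against no fewer than 26099 and 50427 counts per vehicle library. The basal keratinocyte genes Krt14 and Krt15, the suprabasal keratinocyte genes Ivl, Dsg1a and Dsc1 and the sebaceous gene Awat1 were all at 0 in that library, which is labelled as skin. Results are therefore also given without it. Mitochondrially encoded genes held 2.59% to 5.36% of all vehicle counts and 13.3% to 22.0% of all rebamipide counts. Ucp1, the brown fat uncoupling protein, was not counted in any vehicle library and had 81048 counts or more in the rebamipide ones. Of the 8 brown adipocyte markers, 6 were called higher and their summed level was 41.6 to 156 CPM in the vehicle libraries and 4956 to 12832 CPM in the rebamipide libraries. The 10 adipocyte markers, of which 6 were called higher, summed to 1051 to 3826 CPM in the vehicle libraries and 6299 to 8468 CPM in the rebamipide libraries. The 6 basal keratinocyte markers, of which 0 were called lower by edgeR (2 had an unadjusted p-value under 0.05), summed to 2379.9 to 3880.1 CPM in the vehicle libraries and 15.0 to 1075 CPM in the rebamipide libraries. Levels are in CPM, counts scaled to a common library total, after TMM normalization unless stated otherwise. By edgeR, 14.1% of all genes tested were called higher and 6.51% lower. The part of these markers in the results that follow was not tested.

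The comparison of the groups asked which peroxisomal genes differ in skin treated with rebamipide. Most of the 35 were higher, led by Ehhadh and Phyh, enzymes of peroxisomal beta-oxidation and alpha-oxidation, and 1 was lower, Far1, the reductase that makes fatty alcohols for ether lipids. At an adjusted p-value under 0.05 (edgeR's quasi-likelihood test with Benjamini-Hochberg adjustment over 14875 genes) 27 were higher, 1 was lower and 7 were not called, where 14.1% of all genes tested were called higher and 6.51% lower. The median log2 fold change of the 35 was 1.73, with a range from -1.96 to 4.37, beside a median of -0.17 over all genes tested. The 3 rebamipide values all exceeded the 3 vehicle values for 29 of the 35, and all lay below them for 1, beside 24.5% and 24% of all genes tested. By the call rule of the study (unadjusted p-value under 0.05, log2 fold change beyond 1 in size) 27 were higher and 1 was lower, beside 14.3% and 14.5% of all genes. Among the 27 genes called higher the log2 fold changes ran from 0.93 to 4.37, and 26 rose by more than 1 on the log2 scale. The 35 genes together took 0.178%, 0.224% and 0.275% of the counts in vehicle 1, 2 and 3 and 0.405%, 0.586% and 0.616% in rebamipide 1, 2 and 3, a share that does not depend on TMM normalization.

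These calls leaned on single libraries in edgeR and less so in DESeq2, which called 29 higher (16.6% of its 16088 genes) and 1 lower (16%) with all libraries. Limma-voom called 26 higher and 1 lower, beside 14.4% and 6.94% of all genes. Without vehicle 1, edgeR called 18 higher and 1 lower, beside 10% and 2.52% of all genes tested. Without rebamipide 3, it called 13 higher and 0 lower (29 had an unadjusted p-value under 0.05), DESeq2 27 and 1, and limma-voom 14 and 0. The shares of all genes called higher in these 3 fits were 6.6%, 12.9% and 5.94%, and the shares called lower 2.49%, 11.9% and 1.75%. Without vehicle 2 and without rebamipide 2 edgeR called 0 of the 35, with 30 and 29 at an unadjusted p-value under 0.05. These fits called almost no gene at all, 0 of 14964 and 1 of 15335 (0% and 0.00652%), with 4116 and 4062 at an unadjusted p-value under 0.05. DESeq2 called 29 and 26 members higher without the same libraries (16.3% and 12.2% of all genes) and limma-voom 2 and 2 (1.4% and 1.67%). The median of the 35 stayed between 1.54 and 1.91 in the edgeR fits that left out 1 library. Scaling by total counts alone moved the median of all genes from -0.17 to -0.78 and that of the 35 to 1.08, with 19 called higher and 2 lower, beside 8.46% and 25.2% of all genes. Relative to the median of all genes, the median of the 35 was 1.90 with TMM and 1.86 with total counts.

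**Figure D1:**
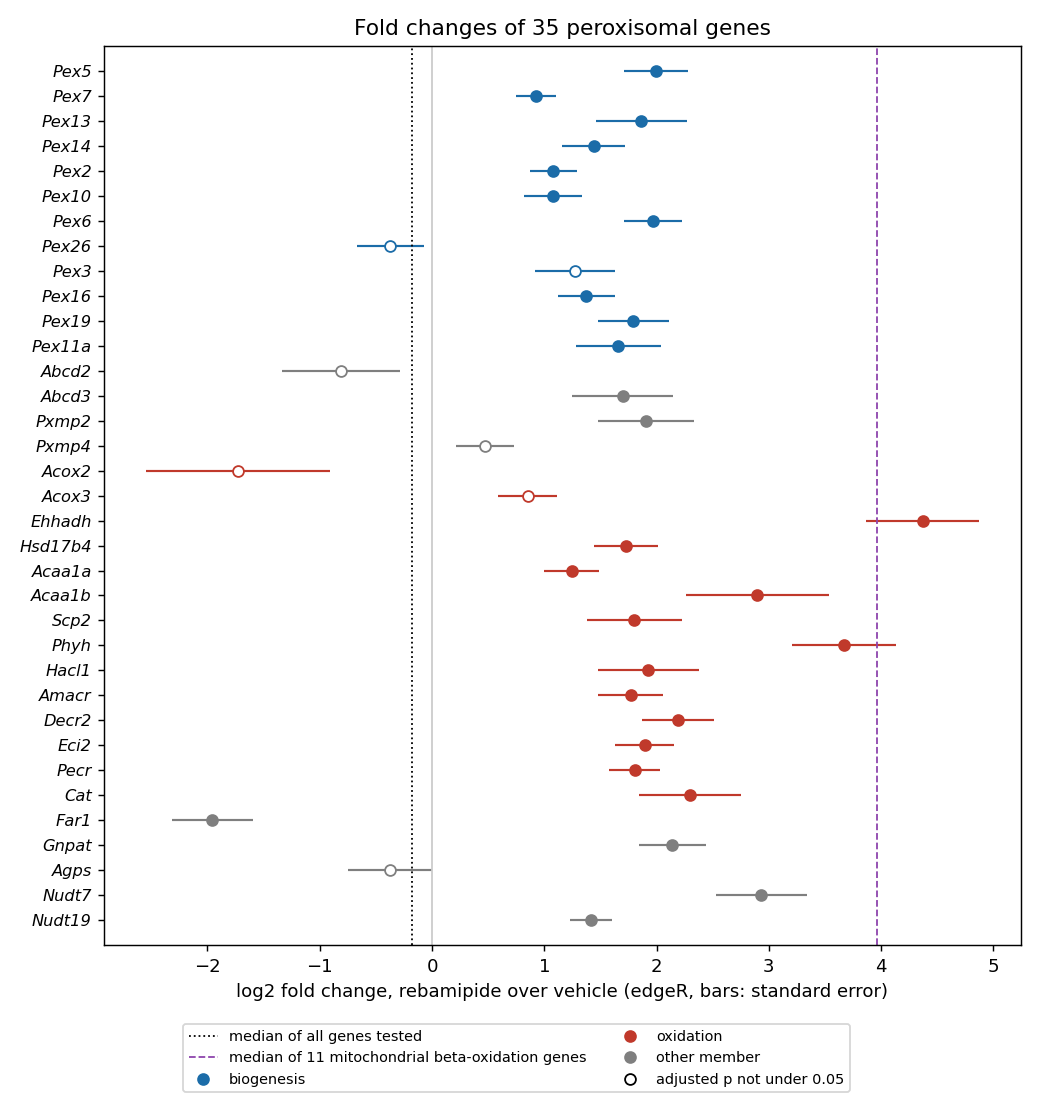
Log2 fold change (rebamipide over vehicle, edgeR, 3 libraries each) of the 35 genes ordered by role, with bars for the standard error (SE), in blue for biogenesis, red for oxidation and grey for the others. Open circles mark the 7 genes not called, the dotted line the median of all genes tested (-0.17) and the dashed line the median of the 11 mitochondrial beta-oxidation genes (3.96), which Ehhadh alone of the 35 exceeded.

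The sequences before the start sites of the genes at the ends of this range are shown for their context, since the 27 genes moved together. RefSeq windows from 250 bases before to 50 bases after the start, on build GRCm38.p6, were matched by gene name for 29 of the 35 genes. Each was searched on both strands for a direct repeat of AGGTCA, the half-site of nuclear receptors such as the PPARs, with 1 free base between the copies and up to 2 mismatches (DR1), for the CCAAT box (CCAAT) and for the GC box (GGGCGG), none of which overlap in the windows shown. The 250 bases before the start are printed 5′ to 3′ on the strand of the gene, with matches in capitals, for Ehhadh (chr16:21787835-21788084, minus strand) and Phyh (chr2:4918746-4918995, plus strand), which had the largest rises, Cat (chr2:103485154-103485403, minus strand), which had the highest level per length, and Far1 (chr7:113513584-113513833, plus strand), the 1 gene called lower.
Ehhadh: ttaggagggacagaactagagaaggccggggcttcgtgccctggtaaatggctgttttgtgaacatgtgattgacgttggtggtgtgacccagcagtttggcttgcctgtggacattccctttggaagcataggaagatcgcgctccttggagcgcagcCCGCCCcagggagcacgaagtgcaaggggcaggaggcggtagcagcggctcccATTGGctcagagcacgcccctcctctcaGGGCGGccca
Phyh: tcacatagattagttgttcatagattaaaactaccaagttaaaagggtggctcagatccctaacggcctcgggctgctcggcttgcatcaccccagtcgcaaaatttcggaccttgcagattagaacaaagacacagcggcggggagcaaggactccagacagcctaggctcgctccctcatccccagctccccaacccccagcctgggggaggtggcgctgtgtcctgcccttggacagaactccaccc
Cat: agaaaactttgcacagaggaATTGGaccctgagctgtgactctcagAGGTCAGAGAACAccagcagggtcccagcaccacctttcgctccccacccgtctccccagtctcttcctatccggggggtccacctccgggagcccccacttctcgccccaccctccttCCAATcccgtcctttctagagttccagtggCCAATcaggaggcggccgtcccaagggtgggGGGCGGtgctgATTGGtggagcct
Far1: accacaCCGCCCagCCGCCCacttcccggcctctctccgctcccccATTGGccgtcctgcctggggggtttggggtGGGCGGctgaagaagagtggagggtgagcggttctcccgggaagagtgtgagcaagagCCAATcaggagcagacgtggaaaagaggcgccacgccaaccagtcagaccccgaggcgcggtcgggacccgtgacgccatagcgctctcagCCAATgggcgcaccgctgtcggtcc
The longest run of capitals, in Cat, is a DR1 match (AGGTCAGAGAACA). A DR1 match was in the windows of 2 of the 29 genes, Cat and Acox2, beside 4.4% of all genes (3.86% of 32851 windows). Ehhadh, Phyh and Far1 held none in this window. CCAAT was in the windows of 14 of the 29 genes, beside 41.1% of all genes, and GGGCGG was in 22, beside 38.2%. Phyh held neither of them before its start, while the printed bases of Far1 held 3 of each. The estrogen-related receptor element TCAAGGTCA was in 0 of the 29 and in 0.466% of all genes. Such matches describe the letters alone and mark no binding.

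Of the 12 biogenesis genes, 10 were higher and 2 were not called, and their median was 1.41 on the log2 scale. Those called rose by 1.08 or more on that scale, apart from Pex7 at 0.93, and by at most 2.00, the value of Pex5. Positions of genes are those of the deposited table, on build GRCm39 by the submitters' processing notes. Both import receptors were higher. Pex5 (ENSMUSG00000005069, chromosome 6, 124373775 to 124392026, minus strand), the receptor that carries most matrix enzymes into the organelle, was at 31.2, 34.2 and 44.6 CPM in vehicle 1, 2 and 3 and at 100.3, 163 and 176 CPM in rebamipide 1, 2 and 3. No rebamipide library overlapped a vehicle library, and rebamipide 1 was the lowest of its group (log2 fold change 2.00 with SE 0.28, edgeR adjusted p = 0.0107). Pex7, the receptor for the smaller class of enzymes that includes Phyh, Agps and the Acaa1 thiolases, was at 28.4, 25.2 and 26.6 CPM in vehicle 1, 2 and 3 and at 44.0, 52.1 and 56.5 CPM in rebamipide 1, 2 and 3. Its groups stood apart with little spread in either (log2 fold change 0.93 with SE 0.18, edgeR adjusted p = 0.0206), yet with scaling by total counts alone the log2 fold change was 0.30 and it was not called.

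The docking complex receives the loaded receptors at the membrane. Pex13, one of its subunits, was at 25.9, 38.7 and 49.9 CPM in vehicle 1, 2 and 3 and at 76.2, 177 and 163 CPM in rebamipide 1, 2 and 3, with a log2 fold change of 1.86 (SE 0.41). Pex14, the other subunit, was at 11.3, 10.1 and 12.7 CPM in vehicle 1, 2 and 3 and at 21.0, 37.3 and 34.0 CPM in rebamipide 1, 2 and 3 and rose by 1.44 log2 units (SE 0.28). Rebamipide 1 was the lowest of its group for both subunits and still above every vehicle library. Pex2 and Pex10 are RING ubiquitin ligases that mark the receptor for its return to the cytosol. Pex2 was at 34.4, 38.2 and 38.8 CPM in vehicle 1, 2 and 3 and at 60.5, 85.5 and 89.6 CPM in rebamipide 1, 2 and 3, and Pex10 was at 7.99, 7.45 and 7.14 CPM in vehicle 1, 2 and 3 and at 12.8, 15.2 and 19.7 CPM in rebamipide 1, 2 and 3. They rose by nearly the same amount on the log2 scale, 1.08 (SE 0.21) and 1.08 (SE 0.26), and with total counts alone neither was called.

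The receptor is pulled out of the membrane by an ATPase that includes Pex6 and is anchored by Pex26. Pex6 was called and Pex26 was not, and the difference between them was not tested. Pex6 (ENSMUSG00000002763, chromosome 17, 47022389 to 47036467, plus strand) was at 39.7, 31.7 and 29.7 CPM in vehicle 1, 2 and 3 and at 96.9, 134 and 166 CPM in rebamipide 1, 2 and 3. All 3 rebamipide libraries were above all vehicle libraries (log2 fold change 1.97 with SE 0.26, edgeR adjusted p = 0.00993). Pex26, the membrane anchor, was at 29.2, 22.4 and 15.1 CPM in vehicle 1, 2 and 3 and at 14.9, 19.0 and 17.7 CPM in rebamipide 1, 2 and 3. Here the groups overlapped and the log2 fold change was -0.37 (SE 0.29, edgeR adjusted p = 0.374). With total counts alone Pex26 was called lower, at -1.01 on the log2 scale (edgeR adjusted p = 0.0455).

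Pex3, Pex16 and Pex19 insert proteins into the peroxisomal membrane. Pex19, the carrier of newly made membrane proteins, was at 74.8, 98.9 and 121 CPM in vehicle 1, 2 and 3 and at 235, 413 and 375 CPM in rebamipide 1, 2 and 3. It was the biogenesis gene with the highest level per length in both groups (31.8 ± 6.70 and 70.7 ± 12.2 FPKM, SD, n = 3) and rose by 1.79 log2 units (SE 0.31). Pex16, which recruits Pex3, was at 16.3, 20.2 and 27.8 CPM in vehicle 1, 2 and 3 and at 47.8, 60.3 and 58.6 CPM in rebamipide 1, 2 and 3 and rose by 1.37 log2 units (SE 0.25). Pex3, the docking site of Pex19, was at 21.7, 34.1 and 42.1 CPM in vehicle 1, 2 and 3 and at 50.0, 94.4 and 91.8 CPM in rebamipide 1, 2 and 3. Its groups did not overlap, and it missed the threshold in edgeR (log2 fold change 1.27 with SE 0.35, edgeR adjusted p = 0.0514) and passed it in DESeq2 (adjusted p = 0.0183). Pex11a, which elongates the membrane before division, was at 17.0, 27.9 and 37.3 CPM in vehicle 1, 2 and 3 and at 56.4, 101 and 102 CPM in rebamipide 1, 2 and 3. It rose by 1.66 log2 units (SE 0.38). As to single libraries, edgeR called 3 of them higher without rebamipide 3 (6.6% of all genes), 6 without vehicle 1 (10%), and 0 without vehicle 2 or without rebamipide 2 (fits with 0 and 1 calls among all genes), where 11 and 11 had an unadjusted p-value under 0.05, DESeq2 called 11 and 10 higher and limma-voom 0 and 0. The 3 called without rebamipide 3 were Pex5 (adjusted p = 0.0294), Pex6 (adjusted p = 0.0249) and Pex19 (adjusted p = 0.0426, edgeR).

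**Figure D2:**
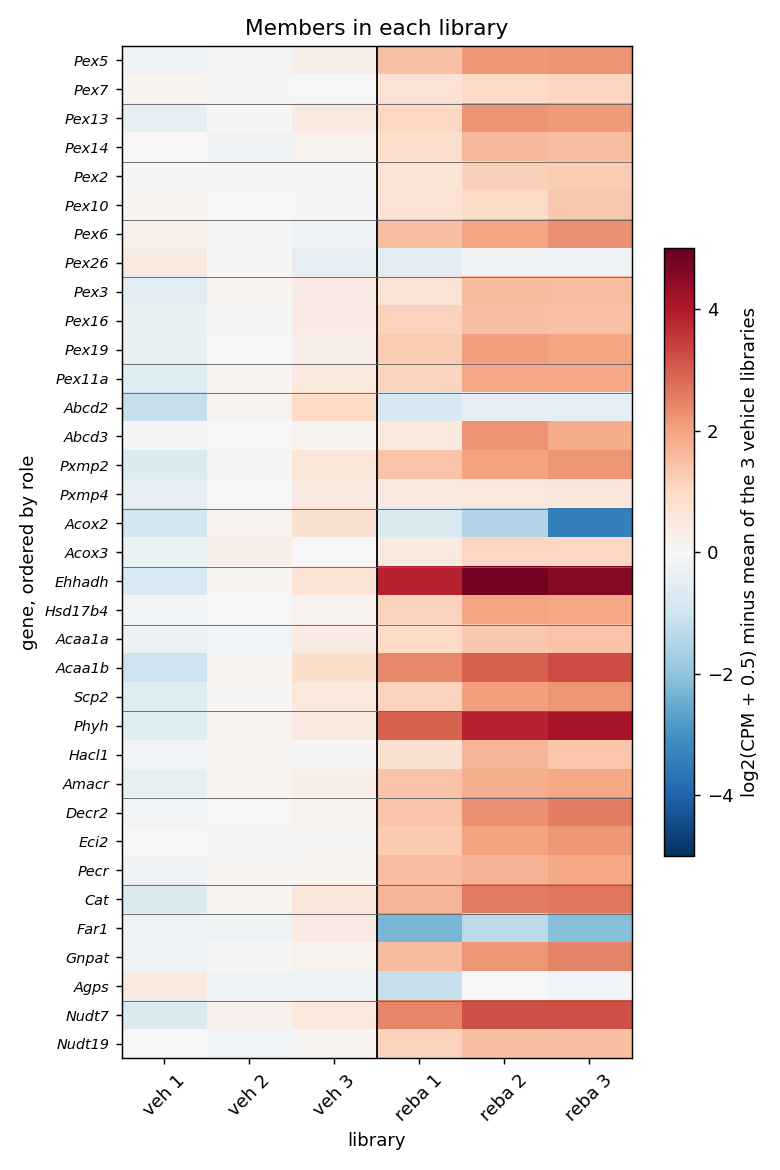
Level of each of the 35 genes (rows, ordered by role) in each of the 6 libraries (columns), as log2(CPM + 0.5) minus the mean of the 3 vehicle libraries on the same scale, red for higher and blue for lower. Ehhadh, Phyh, Nudt7 and Acaa1b are the darkest red, Far1 and Acox2 are blue in the rebamipide columns, and rebamipide 1 is the palest of its group for most genes.

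Of the 4 members of the membrane, 2 were called higher and 2 were not called, and the difference between them was not tested. Abcd3, the transporter of branched chain acyl-CoA, was at 134, 139.7 and 156 CPM in vehicle 1, 2 and 3 and at 201, 676 and 515 CPM in rebamipide 1, 2 and 3. Rebamipide 1 was far closer to the vehicle libraries than the others were (log2 fold change 1.70 with SE 0.45, edgeR adjusted p = 0.0452), and limma-voom did not call it (adjusted p = 0.0536). Abcd2, a transporter of very long chain acyl-CoA that is known for its high level in fat, was at 25.5, 64.8 and 118 CPM in vehicle 1, 2 and 3 and at 33.1, 43.1 and 42.1 CPM in rebamipide 1, 2 and 3. Its groups overlapped, since the vehicle libraries spanned the rebamipide ones (log2 fold change -0.81 with SE 0.52, edgeR adjusted p = 0.282). The log2 fold change was -0.19 without vehicle 3 and -1.25 without vehicle 1. Pxmp2, a channel for small solutes, was higher in each rebamipide library, with 16.4, 25.0 and 28.2 CPM against 3.45, 6.01 and 9.13 CPM in the vehicle libraries (log2 fold change 1.90 with SE 0.43, edgeR adjusted p = 0.0302). Pxmp4, a membrane protein of unclear task, was at 50.0, 68.8 and 95.2 CPM in vehicle 1, 2 and 3 and at 93.7, 101 and 102 CPM in rebamipide 1, 2 and 3. The groups overlapped, and its log2 fold change of 0.47 (SE 0.26, edgeR adjusted p = 0.222) turned to -0.14 with total counts alone. Without rebamipide 3 neither Abcd3 (adjusted p = 0.0978) nor Pxmp2 (adjusted p = 0.0731) was called by edgeR.

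Of the 14 oxidation enzymes, 12 were higher and 2 were not called, and the 2 were both acyl-CoA oxidases. The median log2 fold change was 1.85. Acox3, which oxidises branched chain acyl-CoA, was at 30.3, 48.2 and 38.6 CPM in vehicle 1, 2 and 3 and at 52.9, 78.6 and 80.2 CPM in rebamipide 1, 2 and 3. Its groups did not overlap, but the difference missed the threshold in edgeR (log2 fold change 0.85 with SE 0.26, edgeR adjusted p = 0.0644), and DESeq2 called it (adjusted p = 0.0471). Acox2, which acts on branched chains and bile acid precursors, was at 8.21, 17.9 and 27.7 CPM in vehicle 1, 2 and 3 and at 9.62, 5.57 and 1.07 CPM in rebamipide 1, 2 and 3. Vehicle 1 fell below rebamipide 1, so the groups overlapped, and the lowest value was that of rebamipide 3 (log2 fold change -1.73 with SE 0.82, edgeR adjusted p = 0.168). Without that library its log2 fold change was -1.23, and without rebamipide 1 it was -2.43. The sebaceous gland markers summed to 427 to 1085 CPM in the vehicle libraries and 27.1 to 357 CPM in the rebamipide libraries, lowest in rebamipide 3. Of these 6 markers, 1 was called lower, beside 6.51% of all genes. The basal and suprabasal keratinocyte, fibroblast, leukocyte, fast muscle and hepatocyte markers were lowest in that library too. The part of any of these markers in the Acox2 values was not tested.

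The bifunctional enzymes carry out the middle steps of the cycle. Ehhadh (ENSMUSG00000022853, chromosome 16, 21580037 to 21606557, minus strand), the L-bifunctional enzyme known to be induced by PPAR-alpha ligands in liver, was at 8.85, 16.7 and 25.1 CPM in vehicle 1, 2 and 3 and at 230.4, 440.1 and 377 CPM in rebamipide 1, 2 and 3. The lowest rebamipide value was 9.17 times the highest vehicle value. Its fold change was 20.7, the largest of the 35 (log2 fold change 4.37 with SE 0.50, edgeR adjusted p = 0.00939), and without rebamipide 3 the log2 fold change was 4.32 (edgeR adjusted p = 0.0219). With any 1 library left out, its edgeR adjusted p was 0.00692 to 0.0747. Hsd17b4, the D-bifunctional enzyme that serves very long and branched chains, was at 110.1, 119.8 and 135 CPM in vehicle 1, 2 and 3 and at 271, 475 and 466 CPM in rebamipide 1, 2 and 3. It rose by 1.73 log2 units (SE 0.29, edgeR adjusted p = 0.0141).

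The thiolases release the shortened chain in the last step, and all 3 were higher. Scp2, whose long product is the thiolase of branched chains and whose short product binds sterols, was at 162, 252 and 357 CPM in vehicle 1, 2 and 3 and at 547, 1017 and 1123 CPM in rebamipide 1, 2 and 3. It rose by 1.80 log2 units (SE 0.42). Acaa1a and Acaa1b are near-identical copies of the straight chain thiolase, so the split of reads between them is uncertain. Acaa1a was at 38.6, 43.5 and 62.8 CPM in vehicle 1, 2 and 3 and at 95.6, 120.4 and 127 CPM in rebamipide 1, 2 and 3, a rise of 1.24 on the log2 scale (SE 0.25). Acaa1b, the copy known to be inducible by PPAR-alpha ligands, was at 0.982, 2.90 and 5.22 CPM in vehicle 1, 2 and 3 and at 15.7, 23.3 and 28.7 CPM in rebamipide 1, 2 and 3, a rise of 2.90 (SE 0.64). With any 1 library left out its log2 fold change ranged from 2.44 without vehicle 1 to 3.53 without vehicle 3 (edgeR). The groups stood apart for either copy. None of the 3 thiolases was called by edgeR without rebamipide 3 (adjusted p = 0.0608 to 0.0803).

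Alpha-oxidation removes a single carbon from chains that a methyl branch blocks. Phyh (ENSMUSG00000026664, chromosome 2, 4923830 to 4943541, plus strand), the phytanoyl-CoA hydroxylase that starts it, was at 42.7, 72.9 and 89.3 CPM in vehicle 1, 2 and 3 and at 501, 956 and 1141 CPM in rebamipide 1, 2 and 3. The lowest rebamipide value was 5.61 times the highest vehicle value, and the fold change was 12.7 (log2 fold change 3.67 with SE 0.46, edgeR adjusted p = 0.00993). Without rebamipide 3 its log2 fold change was 3.42 (edgeR adjusted p = 0.0220), and its edgeR adjusted p over all fits without 1 library was 0.00568 to 0.0747. Hacl1, the lyase of the next step, was the lowest of the 35 genes per length and was counted with 25, 32 and 29 reads in vehicle 1, 2 and 3 and with 41, 78 and 62 reads in rebamipide 1, 2 and 3. It was called higher (log2 fold change 1.92 with SE 0.45, edgeR adjusted p = 0.0329), but it overlaps Btd in the table and so few reads leave its size imprecise. Amacr, the racemase that turns methyl branches into the form the oxidases accept, rose by 1.77 log2 units (SE 0.29), with 6.49, 10.1 and 10.9 CPM in the vehicle libraries and 25.2, 33.1 and 35.6 CPM in the rebamipide libraries.

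Decr2, Eci2 and Pecr handle double bonds of unsaturated acyl-CoA, and their rises lay close together. Decr2, a dienoyl-CoA reductase, was at 18.4, 20.5 and 23.1 CPM in vehicle 1, 2 and 3 and at 56.8, 102 and 124 CPM in rebamipide 1, 2 and 3. Eci2, an enoyl-CoA isomerase with a close copy in Eci3 that makes the split of reads uncertain, was at 39.6, 37.2 and 40.7 CPM in vehicle 1, 2 and 3 and at 98.3, 159 and 179 CPM in rebamipide 1, 2 and 3. Pecr, a trans-enoyl-CoA reductase, was at 7.09, 8.71 and 8.57 CPM in vehicle 1, 2 and 3 and at 24.3, 28.3 and 32.7 CPM in rebamipide 1, 2 and 3. In none of the 3 did the groups overlap, and the log2 fold changes were 2.19 (SE 0.32), 1.89 (SE 0.26) and 1.81 (SE 0.23). Cat (ENSMUSG00000027187, chromosome 2, 103284194 to 103315505, minus strand), catalase, was at 141, 255 and 337 CPM in vehicle 1, 2 and 3 and at 737, 1382 and 1479 CPM in rebamipide 1, 2 and 3. The groups did not overlap (log2 fold change 2.30 with SE 0.45, edgeR adjusted p = 0.0216), and without rebamipide 3 edgeR's adjusted p-value was 0.0501. Over the 14 oxidation enzymes, edgeR called 7 of them higher without rebamipide 3 (6.6% of all genes), 9 without vehicle 1 (10%), and 0 without vehicle 2 or without rebamipide 2 (fits with 0 and 1 calls among all genes), where 13 and 12 had an unadjusted p-value under 0.05, DESeq2 called 13 and 12 higher and limma-voom 2 and 2. The 7 called without rebamipide 3 were Ehhadh, Hsd17b4, Phyh, Amacr, Decr2, Eci2 and Pecr.

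Ether lipid synthesis begins in the peroxisome with Gnpat and Agps and draws its fatty alcohols from Far1. Of these 3 genes 1 was higher, 1 was lower and 1 was not called. Gnpat, the acyltransferase of the first step, was at 92.3, 114 and 124 CPM in vehicle 1, 2 and 3 and at 331, 511 and 611 CPM in rebamipide 1, 2 and 3, with no overlap (log2 fold change 2.14 with SE 0.30, edgeR adjusted p = 0.0106). Agps, the alkyl synthase of the second step, was at 58.6, 37.5 and 36.0 CPM in vehicle 1, 2 and 3 and at 18.8, 43.5 and 39.3 CPM in rebamipide 1, 2 and 3. Its groups overlapped, with rebamipide 1 the lowest of the 6 (log2 fold change -0.38 with SE 0.37, edgeR adjusted p = 0.475). Far1 (ENSMUSG00000030759, chromosome 7, 113113041 to 113170718, plus strand) was at 35.7, 38.5 and 58.3 CPM in vehicle 1, 2 and 3 and at 8.33, 16.4 and 9.35 CPM in rebamipide 1, 2 and 3. All 3 rebamipide libraries were below all 3 vehicle libraries, and the level was 0.258 times that of the vehicle group (log2 fold change -1.96 with SE 0.36, edgeR adjusted p = 0.0181). Without rebamipide 3 the log2 fold change was -1.83, edgeR did not call it (adjusted p = 0.0517) and DESeq2 did (adjusted p = 0.00149). Over all fits without 1 library the edgeR adjusted p of Far1 was 0.0298 to 0.0788. The related reductase Far2, a choice made with its values in view, was at 107, 255 and 427 CPM in vehicle 1, 2 and 3 and at 96.2, 71.8 and 0.305 CPM in rebamipide 1, 2 and 3 (edgeR adjusted p = 0.304). The summed basal keratinocyte markers were at 2379.9, 3880.1 and 3278 CPM in vehicle 1, 2 and 3 and at 1075, 574 and 15.0 CPM in rebamipide 1, 2 and 3, and their part in the lower level of Far1 was not tested. The suprabasal keratinocyte markers summed to 1269 to 4648 CPM in the vehicle libraries and 2.37 to 1119 CPM in the rebamipide libraries. Of these 6 markers 0 were called by edgeR (0 had an unadjusted p-value under 0.05), beside 20.6% of all genes in either direction.

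Nudt7 and Nudt19 hydrolyse coenzyme A and its acyl forms inside the peroxisome, and both were higher. Nudt7 was at 11.5, 22.3 and 27.6 CPM in vehicle 1, 2 and 3 and at 107, 181 and 182 CPM in rebamipide 1, 2 and 3, with a log2 fold change of 2.93 (SE 0.41). Nudt19 was at 28.6, 27.0 and 32.7 CPM in vehicle 1, 2 and 3 and at 66.4, 85.1 and 84.3 CPM in rebamipide 1, 2 and 3, with a log2 fold change of 1.42 (SE 0.19). Neither overlapped between the groups, and both were called by edgeR without rebamipide 3 (adjusted p = 0.0258 and 0.0322).

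Biogenesis genes and oxidation enzymes were then set side by side. A similar share of each was called higher, 83.3% of the 12 and 85.7% of the 14. The log2 fold changes of 5 oxidation enzymes (Ehhadh, Phyh, Acaa1b, Cat and Decr2) exceeded that of Pex5, the largest among the biogenesis genes, and 3 biogenesis genes were above the oxidation median. The summed level of the biogenesis genes was 338, 389 and 453 CPM in vehicle 1, 2 and 3 and 816, 1352 and 1349.5 CPM in rebamipide 1, 2 and 3. For the oxidation enzymes it was 615, 906 and 1162 CPM in vehicle 1, 2 and 3 and 2666, 4823 and 5197 CPM in rebamipide 1, 2 and 3. The ratio of the latter sum to the former, which needs no normalization between libraries, was 1.82, 2.33 and 2.57 in vehicle 1, 2 and 3 and 3.27, 3.57 and 3.85 in rebamipide 1, 2 and 3, with no overlap. Cat, Scp2 and Phyh made up 56.2% to 72.0% of the oxidation sum. The ratio of the class medians was 0.898, 0.967 and 0.990 in vehicle 1, 2 and 3 and 1.43, 1.24 and 1.38 in rebamipide 1, 2 and 3. It is set by the genes in the middle of each class, which can differ between libraries. That ratio did not overlap between the groups either. These ratios are given as a description, without a test.

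**Figure D3:**
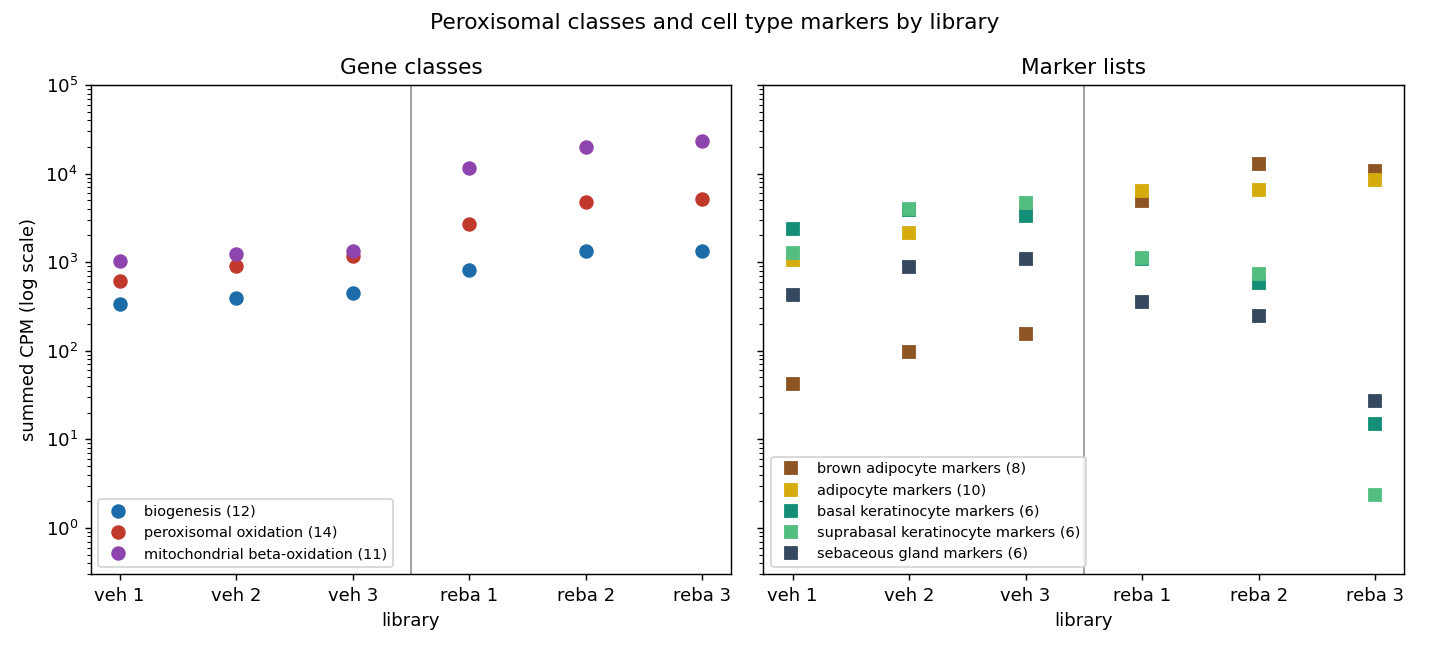
Summed CPM (log scale) of gene classes (left, circles) and of marker lists (right, squares) in each of the 6 libraries, with the number of genes in parentheses. All 3 gene classes are higher in every rebamipide library, as are the 2 fat lists, while the 3 epidermal and sebaceous lists are lower, furthest in rebamipide 3.

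The order of the 35 genes by level per length changed at its top, in its middle and toward its end. Levels between genes were compared in FPKM (counts scaled by gene length and library total), as mean ± SD of 3 libraries. In the vehicle group Cat (115 ± 44.0) and Scp2 (91.0 ± 32.3) were highest, followed by Phyh (44.4 ± 14.4) and Hsd17b4 (44.3 ± 3.48). The members of each of these pairs differed by less than their SD. In the rebamipide group Cat (361 ± 87.6) and Phyh (359 ± 106) were nearly level and well above Scp2 (203 ± 50.7). Ehhadh went from 6.96 ± 3.20 FPKM, position 21 of 35, to 92.5 ± 19.4 FPKM, position 6, next to Hsd17b4 at 93.7 ± 17.2. Nudt7 moved from position 28 to 17 and Acaa1b from 34 to 25. Far1 went the other way, from 6.77 ± 1.72 FPKM at position 22 to 1.12 ± 0.352 at position 34. Abcd2 went from position 11 to 26, Acox2 from 25 to 33 and Agps from 26 to 31. In CPM after TMM the groups overlapped for these genes, and edgeR called none of them (adjusted p = 0.282, 0.168 and 0.475). Abcd2 was at 14.3 ± 9.24 FPKM in the vehicle group, with vehicle 1 at 5.47, and at 5.31 ± 0.124 in the rebamipide group. Hacl1 was last in both groups.

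**Figure D4:**
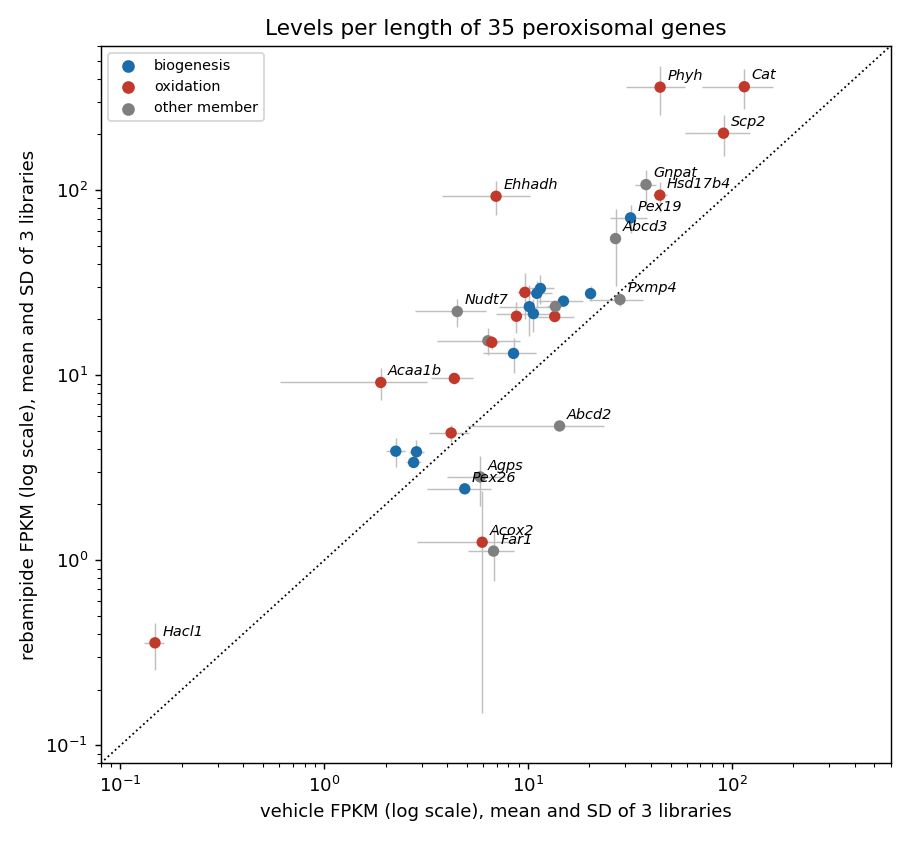
Mean FPKM of the 35 genes in the vehicle group (x axis, log scale) and in the rebamipide group (y axis, log scale), with bars for the SD of 3 libraries, in blue for biogenesis, red for oxidation and grey for the others, and the dotted line of equal FPKM. FPKM were scaled by total counts and not by TMM. Ehhadh, Phyh and Nudt7 lie furthest above the line and Far1, Acox2 and Abcd2 furthest below it.

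The 10 pairs of genes with matching tasks set in this comparison were read by the log2 ratio of their counts within each library, which does not depend on the scaling between libraries. In the 9 described here the groups did not overlap (two-sided exact permutation test, p = 0.1, the smallest that 3 against 3 libraries allow, and 0.111 after Benjamini-Hochberg adjustment over 10 pairs). So no pair could pass the threshold with these numbers of libraries. In 5 of the pairs a peroxisomal enzyme was set against a mitochondrial one with a matching step. The ratio was lower in the rebamipide libraries for 4 of these pairs and higher for 1, Ehhadh over Hadha, and each of the 5 peroxisomal enzymes was called higher itself. Eci2 over Eci1 was 1.06, 0.25 and -0.19 in vehicle 1, 2 and 3 and -1.78, -1.73 and -1.83 in rebamipide 1, 2 and 3, a difference of -2.15. Eci1 thus had more counts than Eci2 in each rebamipide library, while their order varied in the vehicle group. Decr2 over Decr1 differed by -1.44, Acaa1a over the mitochondrial thiolase Acaa2 by -3.06 and Hsd17b4 over Hadha, the mitochondrial trifunctional subunit with the same steps, by -1.52. Ehhadh over Hadha differed by 1.23, and by 0.78 to 1.63 with any 1 library left out.

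Other pairs lay within the peroxisome. Ehhadh over Hsd17b4 was -3.64, -2.84 and -2.43 in vehicle 1, 2 and 3 and -0.23, -0.11 and -0.31 in rebamipide 1, 2 and 3. Counts of Ehhadh were far below those of Hsd17b4 in each vehicle library and close to them in each rebamipide library, a difference of 2.75 that stayed between 2.42 and 3.02 with any 1 library left out. Gnpat over Agps, the first steps of ether lipid synthesis, was 0.65, 1.60 and 1.78 in vehicle 1, 2 and 3 and 4.14, 3.55 and 3.96 in rebamipide 1, 2 and 3 (difference 2.54). Abcd2 over Abcd3 was -2.39, -1.11 and -0.40 in vehicle 1, 2 and 3 and -2.60, -3.97 and -3.61 in rebamipide 1, 2 and 3 (difference -2.09). The transporters came closest in vehicle 3. Acaa1b over Acaa1a differed by 1.89, with the split of reads uncertain as stated.

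**Figure D5:**
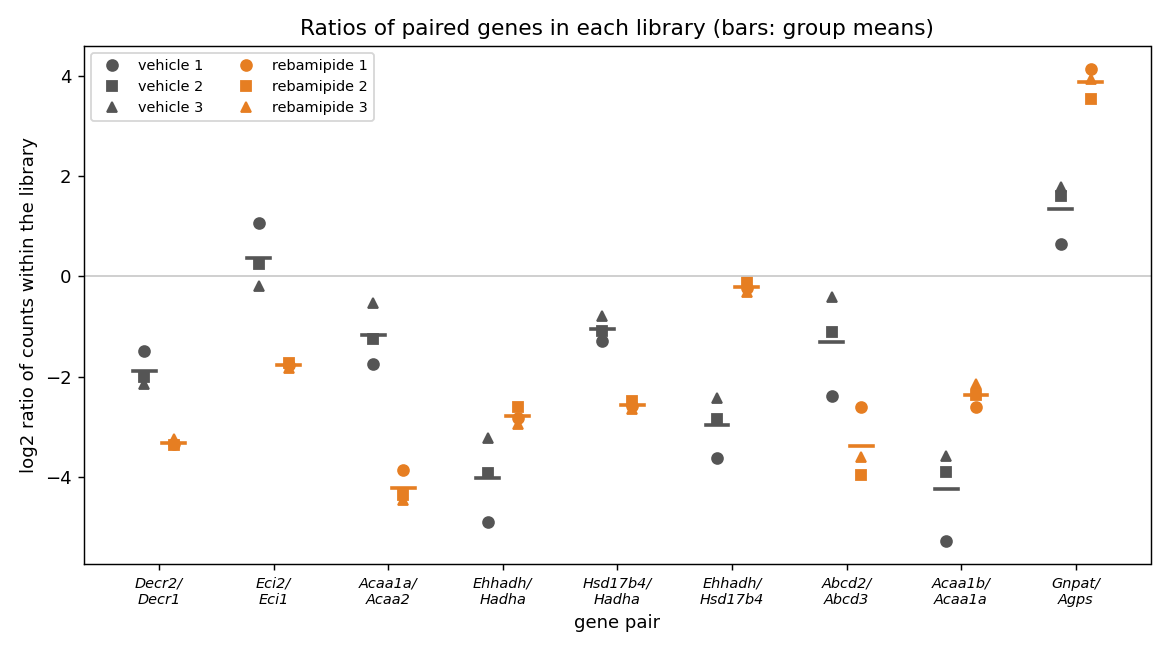
Log2 ratio of counts within each library for 9 gene pairs, with grey symbols for vehicle 1 to 3, orange symbols for rebamipide 1 to 3 and bars for the group means. The groups are apart in each of the 9 pairs.

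Other genes of the peroxisome, from a list of 44 of which 43 were found in the table by name, were read in the same fit. Of the 37 that passed the filter, 24 were called higher and 0 lower by edgeR, beside 14.1% and 6.51% of all genes tested. An unadjusted p-value under 0.05 was reached by 27, and the median log2 fold change was 1.33. Without vehicle 1 edgeR called 16 of 37 higher (10% of all genes), and without rebamipide 3 it called 16 of 40 (6.6%). Without vehicle 2 or without rebamipide 2 it called 0 of this list, in fits with 0 and 1 calls among all genes. DESeq2, run on all 43 genes of the list found in the table, called 27 higher and 0 lower (16.6% and 16% of all genes). Limma-voom called 25 and 0 of the same 37 (14.4% and 6.94% of all genes). Those with the smallest p-values were Slc27a2, which activates very long chain fatty acids, Dhrs4, Ech1, Mlycd and Tysnd1. Slc27a2 had 2, 0 and 6 counts in vehicle 1, 2 and 3 and 3127, 8826 and 9535 counts in rebamipide 1, 2 and 3, so no fitted fold is given. Ech1, an isomerase found in peroxisomes and mitochondria, rose by 3.59 (SE 0.40) and Mlycd, malonyl-CoA decarboxylase, by 2.69 (SE 0.31) on the log2 scale. Dhrs4, a carbonyl reductase, rose by 2.58 (SE 0.28) and Tysnd1, the protease that trims imported enzymes, by 2.54 (SE 0.32). As a yardstick outside the organelle, all 11 mitochondrial beta-oxidation genes were called higher, with a median of 3.96 and a range from 3.26 to 4.46. Without vehicle 2 and without rebamipide 2 edgeR called 0 of these 11 as well (11 had an unadjusted p-value under 0.05 each time), while DESeq2 and limma-voom called all 11. Their summed level was 1.15 to 1.68 times that of the 14 peroxisomal oxidation enzymes in the vehicle libraries and 4.16 to 4.46 times in the rebamipide libraries.

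Within each group the 35 genes ranked the libraries alike. In the vehicle group 27 of the 35 were lowest in vehicle 1 and 27 were highest in vehicle 3. In the rebamipide group 34 were lowest in rebamipide 1, Acox2 being the exception, and 20 were highest in rebamipide 3 and 14 in rebamipide 2. The summed brown adipocyte, adipocyte and endothelial markers were lowest in vehicle 1, highest in vehicle 3 and lowest in rebamipide 1 as well. The fibroblast, leukocyte, sebaceous gland, suprabasal keratinocyte, fast muscle and hepatocyte markers had the same lowest and highest vehicle library, but were highest in rebamipide 1 and lowest in rebamipide 3 within their group. The endothelial markers, of which 3 of 6 were called higher, summed to 209 to 497 CPM in the vehicle libraries and 1012 to 1459 CPM in the rebamipide libraries. The fibroblast markers (0 of 6 called by edgeR, 2 with an unadjusted p-value under 0.05) summed to 12002 to 17735 CPM in the vehicle libraries and 1849.6 to 15112 CPM in the rebamipide libraries. Fast muscle markers (0 of 7 called by edgeR, 0 with an unadjusted p-value under 0.05) summed to 5088, 20324 and 25097 CPM in vehicle 1, 2 and 3 and 32171, 6567 and 266 CPM in rebamipide 1, 2 and 3, a wide spread within either group, and Tnnc2 among them was at 0 in vehicle 1, rebamipide 2 and rebamipide 3. The leukocyte markers, 1 of 6 called higher, summed to 218 to 583 CPM in the vehicle libraries and 146 to 457 CPM in the rebamipide libraries. Slow muscle markers, 3 of 5 called higher, summed to 1.80 to 12.8 CPM in the vehicle libraries and 5.99 to 256 CPM in the rebamipide libraries. The hepatocyte markers, of which 2 of 6 passed the filter, summed to 1.80 to 9.77 CPM in the vehicle libraries and 0.420 to 5.50 CPM in the rebamipide libraries. Among them Alb, serum albumin and the first gene of its list, had 76, 204 and 388 counts in vehicle 1, 2 and 3 and 139, 27 and 6 in rebamipide 1, 2 and 3, while Apob, Apoa1 and Fgb had at most 5 counts in any library. Over all genes tested, edgeR called 14.1% higher and 6.51% lower. The part of these cell types in the values was not tested. Reads could also be shared with neighbours, since 8 of the 35 genes overlap another gene in the table, among them Pex13 with Pus10, Pex3 with Adat2 and Scp2 with Podn, and no source used here gives the strand setting of the counting.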

How the data were processed

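The members and the lists of genes and markers were chosen with earlier results of these data known. Poly-A RNA of dorsal skin was sequenced on a DNBSEQ-T7 instrument. Per the labels and the submitters' processing notes, the authors used fastp 0.22.0, HISAT2 2.1.0 and HTSeq 0.9.1 with the mouse genome build GRCm39, to which gene positions printed without a promoter window refer. The authors deposited raw counts per gene and the FPKM values. The deposited FPKM equal the counts divided by gene length and by summed counts. Columns of the authors' annotation were not used. All per-sample columns were matched to samples by name.

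The 3 libraries of each group were tested against each other with edgeR 4.0.16 under R 4.3.3 (TMM, filterByExpr, quasi-likelihood test, Benjamini-Hochberg adjustment over 14875 genes). The p-values measure the spread between these libraries, from 3 mice per group by the methods of the study. Genes named are the 35 members, both genes of each ratio pair described and, of the other peroxisomal list, the 5 called higher with the smallest p-values, and of marker lists genes that are first or at 0 in a library, though not all of these. Far2 was added after its values were seen. For ratios 0.5 was added to each count. Of the 10 pairs tested, 1 is not reported here. Alternatives were DESeq2 1.42.0, limma-voom (limma 3.58.1), RLE, upper quartile or total-count scaling, leaving each library out, blocking on the replicate number, no filter or a minimum of 10 counts per sample, limma on log2(FPKM + 1) and log2(FPKM + 0.1), and the thresholds of the study. The tests were checked on simulated counts of 14875 genes, 200 of them changed 4-fold. Of these edgeR found 94.5% (8 false calls), DESeq2 94.5% (22 false calls) and limma-voom 92% (6 false calls). The simulation gave every gene the same dispersion, 0.1, and held no library unlike its group. These rates therefore cannot be carried over to the present libraries. Replicate libraries were compared by chi-square tests and differed far beyond counting noise (79.1 to 714 per degree of freedom). A count of 0 allows up to 3 counts, 0.0601 to 0.117 CPM, for counting error only.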

Additional observations from a re-analysis of the deposited data

How the results depend on the processing

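Of the values of the 35 genes under the alternatives that kept all libraries, 354 kept their direction and side of the threshold, 21 lost the call, 7 gained one, and 3 turned, all of Pxmp4, to -0.14 with total counts alone, -0.10 with log2(FPKM + 1) and -0.10 with log2(FPKM + 0.1). With total counts alone the biogenesis genes called higher were 6, the members called lower 2 (Far1 and Pex26), the other peroxisomal genes called lower 1, and the medians 0.77 for biogenesis and 1.21 for oxidation. With limma on log2(FPKM + 1) the members called lower were 2 (Far1 and Acox2), the other peroxisomal genes called lower 3 (beside 32.3% of all genes called lower), and the medians 0.66 and 1.11. With log2(FPKM + 0.1) they were 3 for the other genes called lower (beside 32.1%), and 0.76 and 1.18 for the medians.

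With 1 library left out, over edgeR, DESeq2 and limma-voom, the members called higher numbered 0 to 29 and lower 0 to 2, the biogenesis genes higher 0 to 11, the oxidation enzymes higher 0 to 13, and the other peroxisomal genes higher 0 to 28 and lower 0 to 2. The lowest counts of edgeR and limma-voom came without vehicle 2 or without rebamipide 2, where limma-voom called 2 members and 4 other peroxisomal genes higher, and without rebamipide 3 it called 14 and 14. Those of DESeq2 were 26 to 29 members, 10 to 11 biogenesis genes and 12 to 13 oxidation enzymes. Across the same fits the medians ran from 1.27 to 1.62 for biogenesis and from 1.69 to 2.12 for oxidation. The cause was not tested.

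Replicate numbers are shared by the groups. The deviations of same-numbered libraries had correlations of -0.07, -0.03 and -0.04, and those of libraries with different numbers ran from -0.34 to 0.35. With 3 libraries per group these values cannot tell whether the numbers pair the samples. With the replicate block 23 members were called higher and 1 lower, 8 of the biogenesis genes and 11 of the oxidation enzymes higher, beside 9.63% of all genes higher and 5.75% lower. Depth limits Hacl1 most, at 25 to 78 reads per library.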
